A study of Homo sapiens with 6 samples.

Results

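The genes described here encode actins, actin-binding and contractile proteins, and the transcription factor SRF with its coactivators. They were chosen by name from a list of 39 genes, with earlier results of these arrays known, among them the low signals of ACTBL2 and ACTA2 on the arrays labelled HEK-BAHD1. A gene was included where a probe set of the array named that gene alone, which held for 36 of the 39 genes, of 18377 genes measured by such a probe set in all. The probe set of MRTFA also names RBM15 and is given apart, and FHL1 and FLNA were not analysed here. Since the contrast between the lines was known when the genes were chosen, their differences are given as a description, and no test over the list was made.

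Total RNA of 2 stable lines of HEK293, an established line from human embryonic kidney, was hybridised to Affymetrix HuGene 1.0 ST arrays, on 3 arrays per line. HEK-BAHD1 cells carry 1 copy of the BAHD1 cDNA, which encodes a heterochromatin factor, behind the CMV promoter at a recombination site in the genome. HEK-CT cells (HEK293-CT in the labels) carry at the same site, per the labels, an out-of-frame β-galactosidase insert, whereas the paper describes an empty vector. Both lines were grown in medium with 200 µg/ml hygromycin B, and each is 1 pool of transfectants grown in separate flasks, so the spread between arrays is that between cultures of 1 pool. The supplement gives a later passage for the second HEK-BAHD1 replicate than for HEK-CT and the first, gives none for a further replicate, and does not state that its numbers are those of the arrays.

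The BAHD1 gene itself went against the labels. It was at 10.06, 9.81 and 9.93 on the arrays labelled HEK-CT and at 6.75, 7.0 and 6.76 on those labelled HEK-BAHD1, in log2 signal. The log2 difference (the log2 fold change, mean of the arrays labelled HEK-BAHD1 minus mean of those labelled HEK-CT, used throughout) was -3.10, with an adjusted p = 3.12e-05 in limma. Directions are given by these labels, and would be the opposite if the labels had been exchanged. Array medians lay between 5.46 and 5.56, and no array was identical to another. In RNA of whole cultures, fewer cells that express a gene and less RNA per cell cannot be told apart.

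Actin exists as monomers (G-actin) and filaments (F-actin). The coactivators MRTFA and MRTFB bind G-actin in the cytoplasm. When actin polymerises, they are released, enter the nucleus and act with SRF at a sequence called the CArG box. Their targets include actins themselves, calponins, transgelins, tropomyosins, vinculin and SRF. Of the 6 muscle and cytoplasmic actins of vertebrates, ACTB and ACTG1 are made in nearly every cell, ACTA2 and ACTG2 are typical of smooth muscle, and ACTA1 and ACTC1 of skeletal and cardiac muscle. ACTBL2 encodes a further, actin-like protein.

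The CArG boxes of the promoters are shown because SRF acts through them. Promoter windows (RefSeq, GRCh38.p14) ran from 250 bases before to 50 after each annotated start site and were given for 33 of the 36 genes, in 59 windows. ACTB, MYL9 and TAGLN had none. Capitals mark the box, with 10 bases on either side, and a position is that of the first base of the box. The first group below are the boxes of SRF and of the actins with a full match, none of which was called different between the lines.
SRF at -30 (chr6:43171229-43171258, plus strand): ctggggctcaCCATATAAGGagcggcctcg
SRF at -10 (chr6:43171249-43171278, plus strand): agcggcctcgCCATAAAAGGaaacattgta
ACTG1 at -94 (chr17:81512874-81512903, minus strand): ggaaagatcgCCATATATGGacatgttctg
ACTA1 at -97 (chr1:229434172-229434201, minus strand): tgcccaacacCCAAATATGGctcgagaagg
ACTC1 at -109 (chr15:34795639-34795668, minus strand): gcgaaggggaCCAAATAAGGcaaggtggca
ACTG2 at -110 (chr2:73892888-73892917, plus strand): gaaaaaaccaCCTTATATGGtaatattgct
ACTG2 at -73 (chr2:73892925-73892954, plus strand): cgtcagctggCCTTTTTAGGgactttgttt
The second group belong to genes that were called lower in HEK-BAHD1 by label. The box of CNN2 is a full match, and those of ACTA2 have 1 mismatch, a C or G among the A and T bases of the core. Boxes with 1 mismatch in ACTA1, ACTC1, ACTN4, CALD1 and ZYX, genes that were not called, are not shown. Nor are the full matches of ACTN1, FHL2, FILIP1L and TPM4, also not called.
CNN2 at -89 (chr19:1026509-1026538, plus strand): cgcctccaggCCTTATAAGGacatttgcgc
ACTA2 at -121 (chr10:88952875-88952904, minus strand): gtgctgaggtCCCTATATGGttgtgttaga
ACTA2 at -71 (chr10:88952825-88952854, minus strand): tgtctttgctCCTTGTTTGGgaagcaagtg

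SRF, whose product binds these boxes, had a log2 signal of 8.47, 8.46 and 8.44 on the arrays labelled HEK-CT and 8.39, 8.45 and 8.51 on those labelled HEK-BAHD1. The groups overlapped, and the log2 difference was -0.0067 (95% interval -0.13 to 0.12). MRTFB was at 7.46, 7.12 and 7.33 and at 7.39, 7.49 and 7.24, also overlapping (log2 difference 0.07, 95% interval -0.17 to 0.31). The probe set that names MRTFA and RBM15 was at 7.75, 7.70 and 7.70 and at 7.69, 7.74 and 7.73, with a log2 difference of 0.0033. None of these 3 probe sets was called in either direction.

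**Figure D1:**
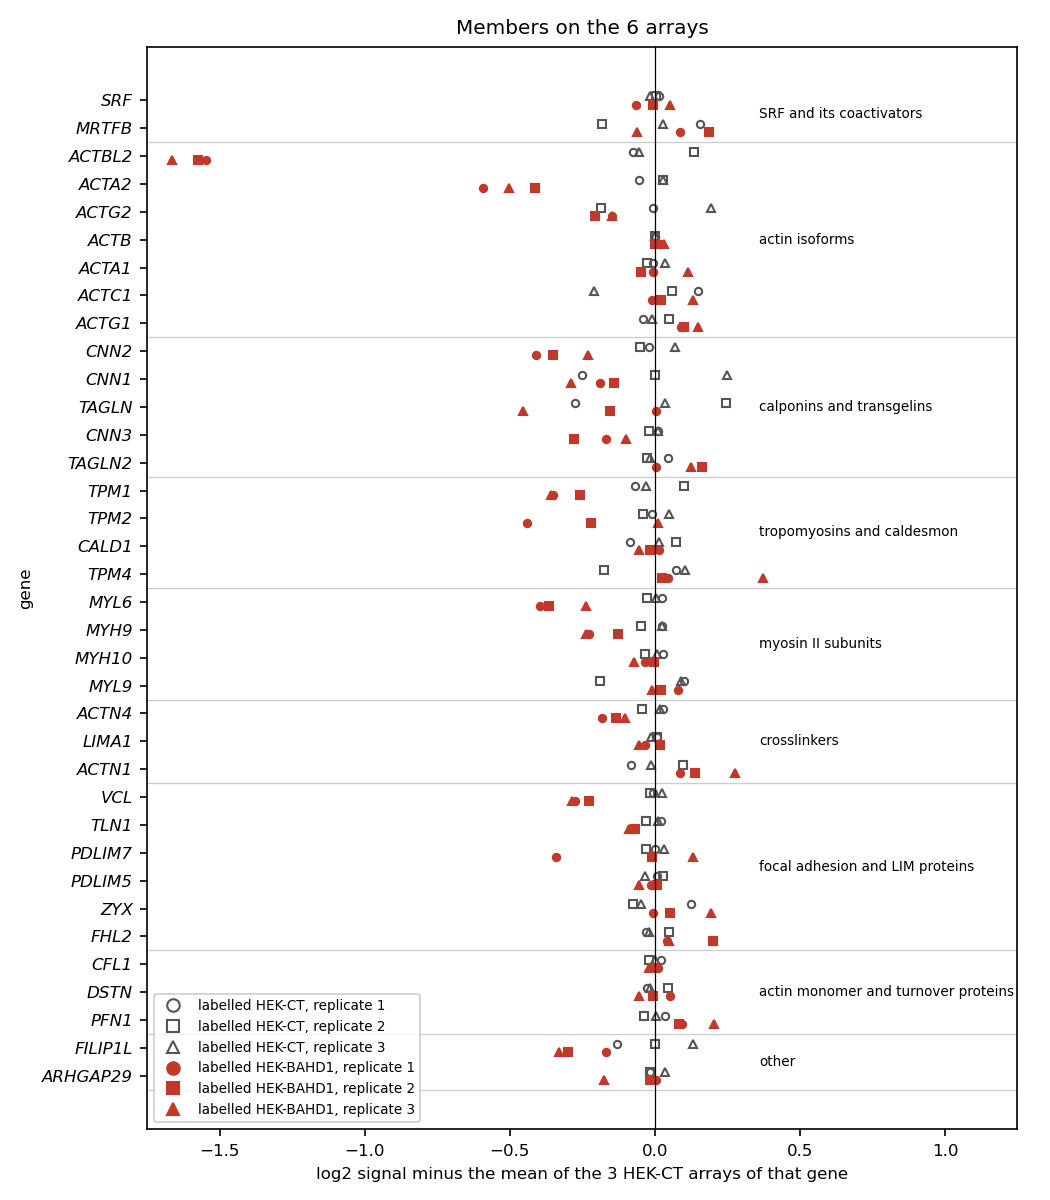
Log2 signal of the 36 genes on each array, as the difference from the mean of the 3 HEK-CT arrays of that gene (horizontal axis), with genes grouped by role (vertical axis); each point is an array, open grey for HEK-CT and filled red for HEK-BAHD1 by label. ACTBL2 and ACTA2 lie farthest to the left, at mean differences of -1.60 and -0.50. Of the 36 genes, 18 differ by less than 0.1, beside 9988 of all 21062 probe sets tested.

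Of the 36 genes, 6 were called lower in HEK-BAHD1 by label, 0 were called higher and 30 were not called. These were the actins ACTBL2 and ACTA2, the myosin light chain MYL6, the calponin CNN2, the tropomyosin TPM1 and the vinculin gene VCL. A call needed an adjusted p under 0.05 in limma over all 21062 probe sets with a gene name and a difference of group medians above 0.2 on the log2 scale. Over all of these probe sets, 6.39% were called lower and 6.79% higher. At an unadjusted p under 0.05, 10 of the 36 genes were lower and 0 higher, beside 14.8% and 14.5% of all probe sets tested. The LPE test called 7 lower and 0 higher, beside 7.3% and 6.19% of all probe sets. The groups did not overlap for 13 genes, 11 of them lower and 2 higher, whereas this held for 33.6% of all probe sets tested (16.9% lower and 16.7% higher). The median log2 difference was -0.03 over the 36 genes and 0.0033 over all probe sets tested. The rule used this contrast, so nothing is read from these counts. Without replicate 3 of HEK-CT, or without replicate 1 of HEK-BAHD1, 3 genes were called lower, beside 581 and 646 of all 21062 probe sets. The 3 genes were ACTBL2, ACTA2 and MYL6, which were called with any array left out. For MYL6 the margin was narrow, with an adjusted p of up to 0.0493 in limma (without replicate 3 of HEK-CT).

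Among the actins, ACTBL2 had the largest difference of the 36 genes. Its log2 signal was 8.48, 8.69 and 8.50 on the arrays labelled HEK-CT and 7.01, 6.98 and 6.89 on those labelled HEK-BAHD1. The lowest HEK-CT array thus lay far above the highest HEK-BAHD1 array, and the log2 difference was -1.60 (standard error 0.073), a signal 3.02-fold lower. ACTA2, smooth muscle α-actin, was at 9.41, 9.49 and 9.49 and at 8.87, 9.05 and 8.96. Its groups did not overlap either, with a log2 difference of -0.50 (standard error 0.064, 1.42-fold lower).

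The other 5 actins were not called. Of these, ACTC1 and ACTG2 lay below every array median (5.46 to 5.56) and among the dimmest 30% of probe sets, so the lack of a call says little for either. ACTB, cytoplasmic β-actin, was at 12.41 on all 3 arrays labelled HEK-CT and at 12.43, 12.41 and 12.44 on those labelled HEK-BAHD1, a log2 difference of 0.017 (95% interval -0.097 to 0.13). ACTG1, cytoplasmic γ-actin, was at 12.98, 13.07 and 13.01 and at 13.11, 13.12 and 13.17. All 3 HEK-BAHD1 arrays lay above the HEK-CT arrays, but by little, and the log2 difference of 0.11 did not pass (95% interval -0.011 to 0.24). ACTA1, skeletal α-actin, was at 6.96, 6.94 and 7.0 and at 6.96, 6.92 and 7.08, with a log2 difference of 0.02. ACTC1, cardiac α-actin, was at 4.26, 4.17 and 3.90 and at 4.10, 4.13 and 4.24, with a log2 difference of 0.047. ACTG2, enteric smooth muscle γ-actin, was at 4.21, 4.03 and 4.41 and at 4.07, 4.01 and 4.07. Its arrays overlapped, and the log2 difference was -0.17 (95% interval -0.39 to 0.052). The coding sequences of actins are closely similar. How far the probes of each set are specific to 1 actin was not tested, so the values of this family are uncertain.

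**Figure D2:**
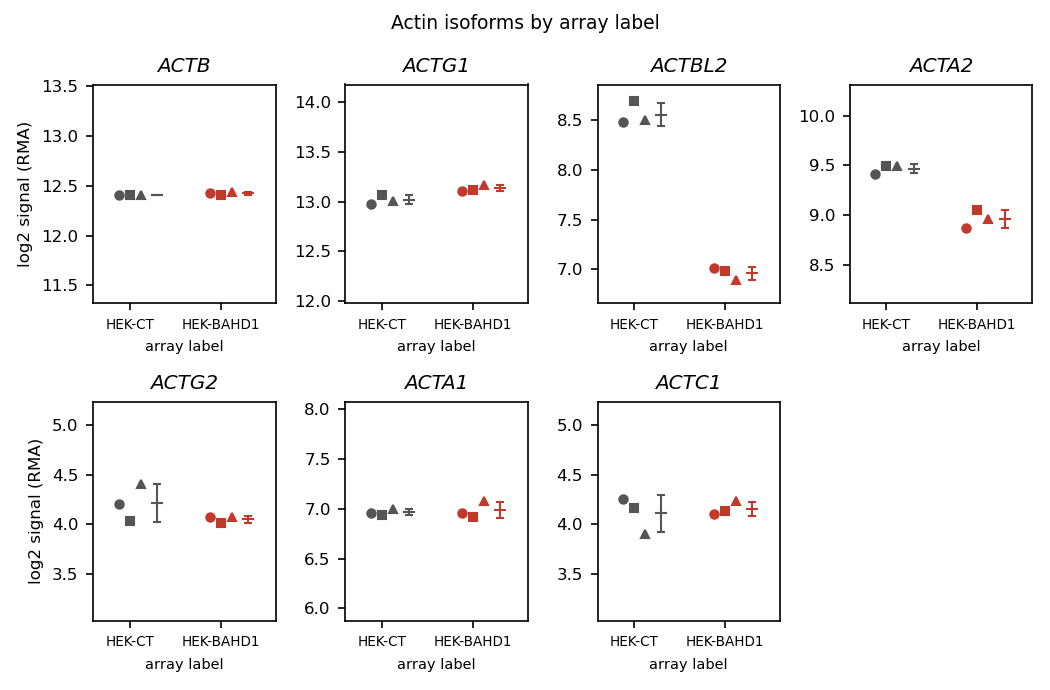
Log2 signal (RMA, vertical axis) of the 7 actin genes on the 6 arrays by label (horizontal axis); circles, squares and triangles are replicates 1, 2 and 3, and the bar is the mean ± SD of 3 arrays, with 2.2 log2 units on every vertical axis. By label, ACTBL2 and ACTA2 were lower in HEK-BAHD1, and the other 5 had log2 differences from -0.17 to 0.11.

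Calponins and transgelins are related actin-binding proteins of contractile and motile cells. CNN2, a calponin that is not restricted to muscle, was at 8.80, 8.77 and 8.89 on the arrays labelled HEK-CT and 8.41, 8.47 and 8.59 on those labelled HEK-BAHD1. All HEK-BAHD1 arrays lay below the HEK-CT arrays (log2 difference -0.33, standard error 0.067). The call of CNN2 was lost without replicate 1 or 3 of HEK-CT or replicate 1 or 2 of HEK-BAHD1. CNN3 was also lower without overlap, at 10.24, 10.21 and 10.24 against 10.06, 9.95 and 10.13, but was not called (log2 difference -0.18, standard error 0.062). CNN1, the calponin of smooth muscle, and TAGLN, which marks smooth muscle, had differences of -0.21 and -0.20 with overlapping arrays and standard errors of 0.12 and 0.15. TAGLN was at 5.24, 5.76 and 5.55 and at 5.52, 5.36 and 5.06, so its HEK-CT arrays alone spanned more than the difference. TAGLN2 had a log2 difference of 0.097.

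Tropomyosins lie along actin filaments and control the access of myosin. TPM1 was at 7.46, 7.63 and 7.50 on the arrays labelled HEK-CT and 7.18, 7.27 and 7.17 on those labelled HEK-BAHD1. The groups did not overlap (log2 difference -0.32, standard error 0.065), and the call was lost without replicate 2 or 3 of HEK-CT or replicate 1 or 3 of HEK-BAHD1. TPM2 was at 6.32, 6.29 and 6.38 and at 5.89, 6.11 and 6.34, so that the 3 HEK-BAHD1 arrays spread widely and 1 of them lay among the HEK-CT arrays (log2 difference -0.22, standard error 0.11). TPM4 had a log2 difference of 0.15 with overlapping arrays (standard error 0.11). Caldesmon (CALD1), which binds actin and tropomyosin, had a difference of -0.02.

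Non-muscle myosin II pulls on actin filaments and consists of heavy chains and of essential and regulatory light chains. MYL6, the essential light chain, was at 11.58, 11.53 and 11.56 on the arrays labelled HEK-CT and at 11.16, 11.19 and 11.32 on those labelled HEK-BAHD1 (log2 difference -0.33, standard error 0.061). All HEK-BAHD1 arrays lay below the HEK-CT arrays. MYH9, the heavy chain of myosin IIA, was at 9.98, 9.91 and 9.98 and at 9.73, 9.83 and 9.72. Its groups did not overlap, but the log2 difference of -0.20 was not called, and it was called in 4 of 16 alternative analyses. MYH10, the heavy chain of myosin IIB, and MYL9, a regulatory light chain and SRF target, had differences of -0.037 and 0.03 with overlapping arrays.

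**Figure D3:**
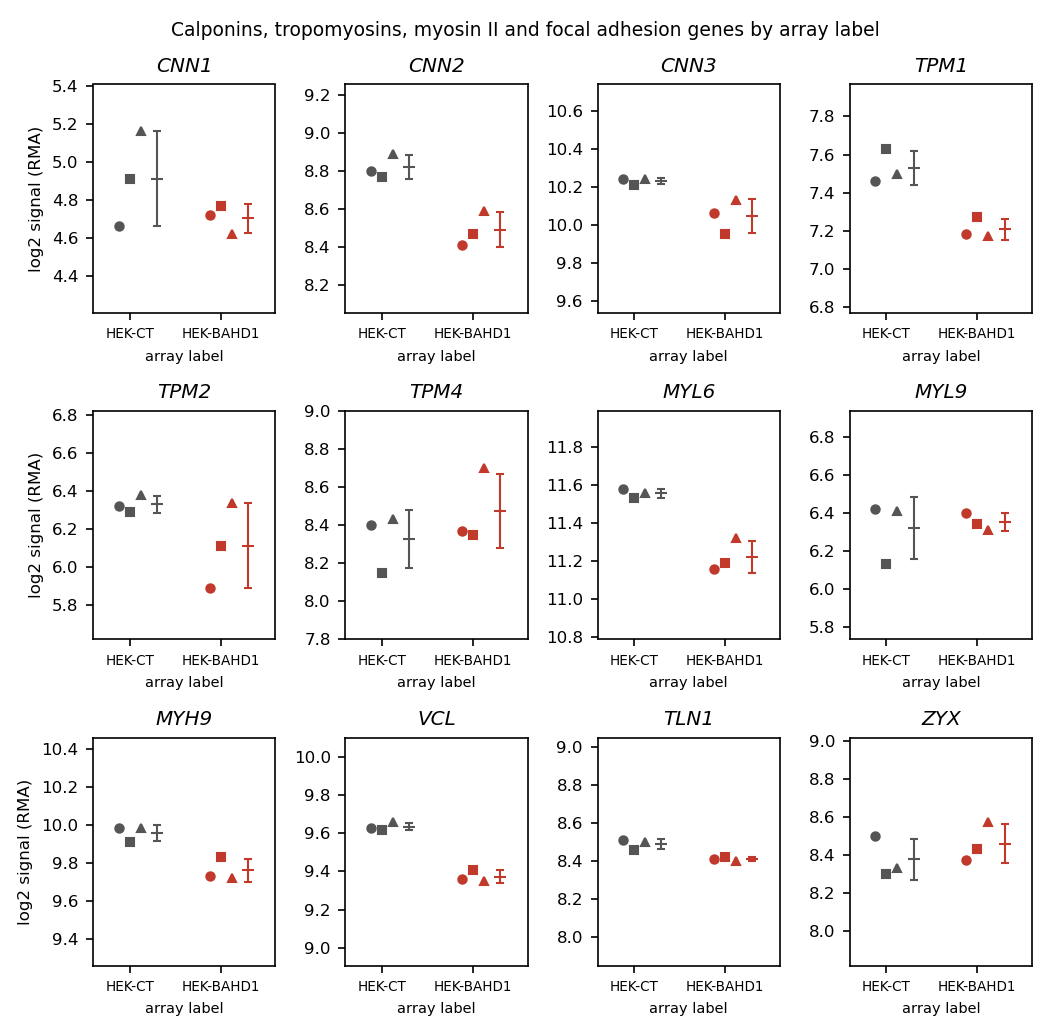
Log2 signal (RMA, vertical axis) of 12 calponin, tropomyosin, myosin II and focal adhesion genes on the 6 arrays by label (horizontal axis); circles, squares and triangles are replicates 1, 2 and 3, and the bar is the mean ± SD of 3 arrays, with 1.2 log2 units on every vertical axis. CNN2, CNN3, TPM1, MYL6, MYH9, VCL and TLN1 were lower in HEK-BAHD1 by label without overlap, while CNN1, TPM2, TPM4, MYL9 and ZYX overlapped. Of those without overlap, CNN3, MYH9 and TLN1 were not called. Over all probe sets tested, 16.9% were lower and 16.7% higher without overlap. The genes shown were chosen after their values were seen, and MYH10, FHL2, PDLIM5 and PDLIM7, which overlapped, are not shown.

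At focal adhesions, integrins are joined to actin by talin and vinculin. VCL (vinculin) was at 9.63, 9.62 and 9.66 on the arrays labelled HEK-CT and 9.36, 9.41 and 9.35 on those labelled HEK-BAHD1. The groups did not overlap (log2 difference -0.26, standard error 0.051), and the call was lost without replicate 3 of HEK-CT or replicate 1 of HEK-BAHD1. Talin (TLN1) was also lower without overlap, at 8.51, 8.46 and 8.50 against 8.41, 8.42 and 8.40, by a log2 difference of -0.08 that was not called. Zyxin (ZYX), a LIM protein that senses tension, and FHL2, a LIM-domain cofactor, had differences of 0.08 and 0.097. PDLIM5 and PDLIM7, which have PDZ and LIM domains, were at -0.02 and -0.073, none of these 4 being called.

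The α-actinins, which crosslink filaments, differed in sign. ACTN4 was at 11.88, 11.81 and 11.87 on the arrays labelled HEK-CT and 11.67, 11.72 and 11.75 on those labelled HEK-BAHD1, lower without overlap but not called (log2 difference -0.14, standard error 0.054). ACTN1 had a log2 difference of 0.17 with overlapping arrays (standard error 0.074), and whether the α-actinins differ from each other was not tested. LIMA1, which bundles filaments, had a difference of -0.023. Of the proteins of actin turnover, none was called. CFL1 (cofilin) and DSTN (destrin), which sever filaments, each had a difference of -0.0033, and PFN1 (profilin), which loads monomers onto filaments, had 0.13, higher without overlap but not called. FILIP1L and ARHGAP29 had differences of -0.27 and -0.063. FILIP1L was lower without overlap, at 4.69, 4.82 and 4.95 against 4.65, 4.52 and 4.49, and was not called.

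The spread between arrays of 1 line was small for these genes. Most of them were brighter than the median of the probe sets tested, which was 6.40 to 6.46 per array. Spread was not compared at like signal. The median SD over the 36 genes was 0.042 on the arrays labelled HEK-CT and 0.070 on those labelled HEK-BAHD1, beside 0.078 and 0.083 over all probe sets tested. It was highest for TAGLN among HEK-CT arrays, at 0.26, and for PDLIM7 among HEK-BAHD1 arrays, at 0.24. The latter came with a signal of 6.92 on replicate 1 of HEK-BAHD1 against 7.25 and 7.39 on the others. By size, 26 of the 36 log2 differences were under 0.2 and 2 were at least 0.4. Of all probe sets tested, 15885 of 21062 were under 0.2 and 1128 were at least 0.4.

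The CArG box was compared with these differences. Of the 33 genes with a promoter window, 10 had a full match, found in 12 of 59 windows, whereas 1.29% of all 35116 windows hold it. The genes were listed partly as known SRF targets, so this share is no finding. The genes with a full match were SRF, ACTG1, ACTA1, ACTC1, ACTG2, ACTN1, CNN2, FHL2, FILIP1L and TPM4. Their log2 differences had a median of 0.033 and ran from -0.33 (CNN2, the only one called) to 0.17. The 23 genes without a full match had a median of -0.073, and 5 of them were called lower, beside 6.39% of all probe sets tested. ACTC1, ACTG2 and FILIP1L, with a full match, and CNN1, without one, were among the dimmest 30% of probe sets. Whether genes with and without a full match differ was not tested. A box with a C or G at exactly 1 position of the core was held by 6 genes (ACTA1, ACTA2, ACTC1, ACTN4, CALD1 and ZYX). It was found in 7 of the 59 windows and in 6.94% of all windows. The 14 genes with either kind of box had a median log2 difference of 0.00665, and 2 were called lower. The 19 genes with neither had a median of -0.073, and 4 were called lower, again beside 6.39% of all probe sets tested. Whether these groups differ was not tested. ACTBL2, MYL6, TPM1 and VCL had neither kind of box in their windows. The hexamer GGAATG or its complement CATTCC, the core of sites for TEAD factors, was found in 15 of the 59 windows and in 14% of all windows. The 15 windows belonged to 14 of the 33 genes, ACTA2 and VCL among those called. TATAAA, read on the strand of the gene, was found in 3 of the 59 windows, those of ACTA1, ACTC1 and CALD1, and in 7.33% of all windows. These matches describe letters within the windows, and no binding was measured.

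**Figure D4:**
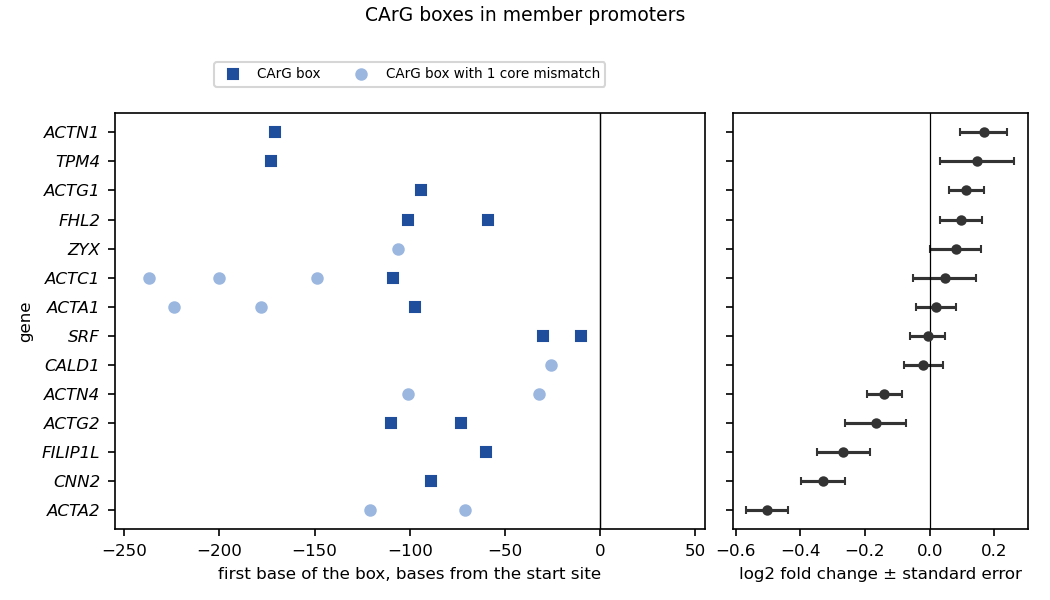
Left, position of CArG boxes (dark squares) and of boxes with 1 core mismatch (light circles) relative to the start site, in bases, for the 14 genes that hold either in a promoter window; right, log2 difference of each gene (labelled HEK-BAHD1 minus labelled HEK-CT, bar: standard error). Genes with boxes lie on either side of 0, from ACTA2 at -0.50 to ACTN1 at 0.17.

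Other genes of the same pathway, in 4 lists set up by function, were measured for 69 of 80 genes, and the rest were not analysed here. Of the 69 genes, 10 were called higher, 10 lower and 49 neither, beside 6.79% higher and 6.39% lower over all probe sets tested. Their median log2 difference was 0.0133. Leaving out an array gave 4 to 8 higher and 4 to 7 lower. Either count moved by over 1.5 times without replicate 1 (6 higher and 5 lower), 2 (6 and 5) or 3 (4 and 4) of HEK-CT and without replicate 1 (6 and 5) or 3 (5 and 6) of HEK-BAHD1.

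Of 13 further smooth muscle and SRF-MRTF genes, 2 were higher and 3 lower (median 0). NEXN (nexilin), an F-actin-binding protein, was at 7.20, 7.55 and 7.41 on the arrays labelled HEK-CT and at 6.62, 6.48 and 6.26 on those labelled HEK-BAHD1 (log2 difference -0.93, adjusted p = 0.00335 in limma). The LIM proteins CSRP1 and CSRP2 were at -0.44 and -0.39 (adjusted p = 0.0257 and 0.0278 in limma). CSRP1 was not called without replicate 2 or 3 of HEK-CT or replicate 1 or 3 of HEK-BAHD1, and CSRP2 was called with replicate 3 of HEK-BAHD1 left out but lost its call with any other array left out. MICAL2, which oxidises actin, was higher, at 5.21, 5.23 and 5.23 against 5.77, 5.85 and 5.78 (log2 difference 0.58, adjusted p = 0.00118 in limma). Of the ternary complex factors, which bind SRF in place of MRTFs, and their immediate early targets, 1 of 9 genes was higher and 2 were lower (median -0.117). FOS and FOSB, AP-1 transcription factors, were at -0.70 and -0.57 (adjusted p = 0.0109 and 0.00724 in limma). The factor ELK3 was at 0.30 (adjusted p = 0.0284 in limma), a call that the LPE test did not make and that was lost without replicate 2 or 3 of HEK-CT or replicate 1 or 3 of HEK-BAHD1.

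Of 27 further actin filament proteins, 3 were higher and 2 lower (median 0.01). FSCN1 (fascin), which bundles filaments in filopodia, was at 8.13, 8.18 and 8.20 on the arrays labelled HEK-CT and 8.95, 9.04 and 9.07 on those labelled HEK-BAHD1 (log2 difference 0.85, adjusted p = 0.000376 in limma). GSN (gelsolin), which severs filaments, was at 0.40 and the monomer-binding TMSB10 at 0.31 (adjusted p = 0.018 and 0.0292 in limma). GSN was not called without replicate 2 or 3 of HEK-CT, and TMSB10 without replicate 1, 2 or 3 of HEK-CT or replicate 2 or 3 of HEK-BAHD1. The regulatory light chain MYL12A was at -0.27 (adjusted p = 0.0499 in limma, just inside the threshold) and lost its call in 9 of 16 alternatives, among them each array left out. Of 20 further focal adhesion and LIM genes, 4 were higher and 3 lower (median 0.05). Of the 3 integrin subunits in the list, 1 was called higher, 1 lower and 1 (ITGB1, at 0.057) neither. ITGA5, a chain of the fibronectin receptor, was at 7.01, 6.95 and 7.06 and at 7.93, 7.92 and 8.0 (log2 difference 0.94, adjusted p = 0.000277 in limma). ITGAV, the chain of vitronectin receptors, was at 9.44, 9.47 and 9.47 and at 8.89, 8.96 and 8.78 (log2 difference -0.58, adjusted p = 0.00197 in limma). The LIM protein AJUBA was at -0.44 and the tensin TNS3 at 0.35 (adjusted p = 0.0184 and 0.0205 in limma). AJUBA was not called without replicate 1 or 3 of HEK-CT. TNS3 was not called by the LPE test or without replicate 1 or 3 of HEK-CT or replicate 1 or 3 of HEK-BAHD1. Its signal was 4.33, 4.46 and 4.28 on the HEK-CT arrays and 4.78, 4.61 and 4.73 on the HEK-BAHD1 arrays by label. TNS3 thus lay below every array median (5.46 to 5.56) and was among the dimmest 30% of probe sets.

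**Figure D5:**
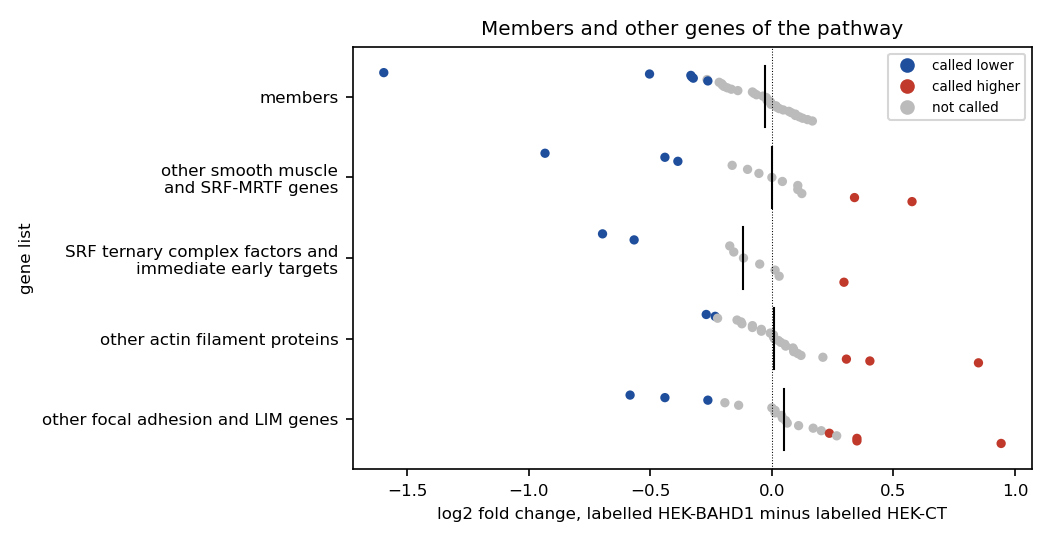
Log2 difference (labelled HEK-BAHD1 minus labelled HEK-CT, horizontal axis) of the 36 genes and of the 4 other lists of the pathway (vertical axis); each point is a gene, blue where called lower, red where called higher and grey where not called, and the vertical line is the median of a list. The 36 genes hold 6 calls, all lower, and the other lists hold 10 higher and 10 lower.

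Markers of other cell types were read on the same arrays. Of 5 smooth muscle markers outside the 36 genes (MYH11, LMOD1, DES, SYNPO2 and MYOCD), 0 were higher and 0 lower in limma, at an unadjusted p under 0.05 and by the LPE test. Their mean log2 signal per array ranged from 4.42 to 4.56 on the arrays labelled HEK-CT and from 4.43 to 4.52 on those labelled HEK-BAHD1. These means lay below every array median (5.46 to 5.56), so the lack of a call says little. These 5 markers are also part of the 13 further smooth muscle and SRF-MRTF genes above. Of those 13 genes, 2 were called higher and 3 lower in limma. Of 8 fibroblast markers, 0 were higher and 1 lower in limma, 0 and 2 at an unadjusted p under 0.05, and 0 and 0 by the LPE test, the lower one being COL3A1 at -0.31. None of 6 endothelial and none of 6 skeletal muscle markers was called in limma or by the LPE test. At an unadjusted p under 0.05, 1 skeletal muscle marker was higher and 0 lower, and 0 endothelial markers were higher or lower. Over all probe sets tested, 14.5% were higher and 14.8% lower at that threshold. Limma called 6.79% of them higher and 6.39% lower, and the LPE test 6.19% and 7.3%. The mean signals of the fibroblast, endothelial and skeletal muscle lists also lay below every array median. Of 7 genes set down as typical of HEK293 cells, NEFL and NEFM (neurofilaments) were higher at 0.40 and 0.77, VIM (vimentin) was lower at -0.28, and 4 were not called. These values hold no absolute zero, so that presence or absence of a marker cannot be read from them, and the part of any other cell type in the results was not tested.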

How the data were processed

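The authors summarised probe intensities of 6 HuGene 1.0 ST arrays to gene-level log2 values with RMA (background correction, normalization between arrays and summary of probes); the version and genome build are not given in the sources used here. The deposited log2 values have 2 decimals and no detection calls. Symbols came from the platform annotation, updated through gene identifiers to GRCh38.p14. Of 28869 probe sets, 19310 named 1 gene, 1752 several and 7807 none. The 21062 that named a gene were tested with limma 3.58.1 in R 4.3.3 (all 6 arrays, no covariate, Benjamini-Hochberg adjustment), and calls also needed a difference of medians above 0.2, as in the methods of the paper. The LPE test of the paper was rewritten as an alternative (100 bins of intensity, smoothing spline with 10 degrees of freedom). Both tests were tested on simulated data. The number of arrays limits the precision. The paper gives its arrays another series number, and the labels were used to match the experiment.

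The members and lists were chosen with earlier results of these data known. Array values were to be printed for actins, SRF, MRTFA, MRTFB and members with a log2 fold change of at least 0.4 in size. Up to 4 called genes were named per pathway list. A further pathway list is not reported here. Other members and pathway genes shown by array, markers named for a change and the motifs were chosen after their values were seen. The brightest probe set represented a gene that had several. Alternatives were the test, scaling, filters, variance models, the threshold on medians, the replicate number as a block, the mean of several probe sets and leaving out each array.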

Additional observations from a re-analysis of the deposited data

How the results depend on the processing

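Of 16 alternatives, none called a member higher, and none turned the direction of a called gene. The count of members called lower was 3 to 5 with 1 array left out, and 5 to 7 under the other alternatives, where MYH9 was gained or VCL was lost. The member median, -0.03 as reported, was -0.07 after median centring of each array, -0.0074 after a further quantile normalization, and -0.059 to -0.023 with 1 array left out. With 1 array left out, 4 to 8 pathway genes were higher and 4 to 7 lower. BAHD1 was at -3.18 to -3.03 with 1 array left out. Fewer arrays leave less precision by construction, and the cause of other changes was not tested. Same-numbered arrays of the lines did not deviate together (correlations of deviations from the group means -0.077, 0.074 and -0.038 for replicates 1, 2 and 3), so the numbers were not taken as a pairing. With the replicate number as a block, 8 pathway genes were called higher and 7 lower, and VCL, MYL12A and TNS3 were not called (adjusted p = 0.0556, 0.0734 and 0.0567 from limma). Over all probe sets tested, calls were 1430 higher and 1345 lower, 1052 and 1823 after median centring of each array, 962 and 829 with the block, and 806 to 938 and 581 to 937 with 1 array left out. In all, 49 of 811 gene values under alternatives lost a call and 4 gained one. Signal over background could not be judged, as the values carry no background measure.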
